A study of Mus musculus with 45 samples.

Results

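Shank3 encodes a scaffold protein of the excitatory postsynaptic density, and in mouse it lies on chromosome 15 among genes whose human counterparts sit beside SHANK3 near the end of the long arm of human chromosome 22. Mapk8ip2, Arsa, Chkb, Sbf1, Ncaph2, Lmf2, Plxnb2, Ppp6r2, Trabd and Rabl2 were taken from this stretch by name, as the 10 members described here, out of 18135 genes in the deposited values. The question was whether the level of a neighbour differed in mice that carry the mutant Shank3 allele. RNA of the prefrontal cortex (termed cortex), hippocampus and striatum of male C57BL/6J mice of 13 weeks was sequenced, with 5 samples for each of 3 genotypes in each region and 45 samples in all. Wild-type (WT) mice, mice heterozygous for the mutant allele (Shank3-HT) and homozygous mice (Shank3-HM) were compared. The mutant allele lacks exons 14 to 16 of Shank3 in the germ line, so every cell carries it, and all 3 genotypes share the C57BL/6J strain. The sample labels call the homozygous mice knock-out mice. The labels do not say which samples of different regions came from one mouse.

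In people, losses of the end of this chromosome arm that take SHANK3 with them cause Phelan-McDermid syndrome, and many of these losses also remove neighbours such as MAPK8IP2 and ARSA. The members have unrelated tasks. They range from a scaffold of a kinase cascade at synapses to a lysosomal enzyme that clears myelin lipid, and they are next to each other only on the chromosome. A mutant allele can in principle touch nearby genes, since neighbours may share regulatory sequence and are inherited together with the allele.

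By the GENCODE M21 annotation of build GRCm38, Shank3 (ENSMUSG00000022623) runs on the plus strand of chromosome 15 from 89499623 to 89560261. The 9 members Arsa, Mapk8ip2, Chkb, Ncaph2, Lmf2, Sbf1, Ppp6r2, Plxnb2 and Trabd lie on its lower-coordinate side. Arsa (89472476 to 89477425, minus strand) was the closest of them, 22.2 kb from Shank3, and Mapk8ip2 (89453913 to 89464468, plus strand) followed at 35.16 kb. Chkb lay 69.72 kb, Ncaph2 126.8 kb, Lmf2 144 kb, Sbf1 184.3 kb, Ppp6r2 212.6 kb, Plxnb2 318.8 kb and Trabd 412.5 kb from it. Rabl2 (89582533 to 89591923, minus strand) was the single member on the other side, 22.27 kb past the end of Shank3.

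Lmf2 and Ncaph2 are transcribed away from each other, and their RefSeq starts are 60 bases apart. The whole stretch between the starts is shown first, on the plus strand, followed by the 250 bases before the starts of Mapk8ip2 and Rabl2, each on its gene's own strand. Mapk8ip2 and Rabl2 are shown because they were the members whose striatal samples lay apart from all cortical and all hippocampal samples, as given with the regions. Sequences are from RefSeq on build GRCm38.p6, where all 10 members had an entry, and capitals mark a match to the GC box GGGCGG on either strand.
Lmf2-Ncaph2, chr15:89355660-89355718: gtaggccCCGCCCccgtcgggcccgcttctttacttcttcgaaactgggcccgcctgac
Mapk8ip2, chr15:89453661-89453910: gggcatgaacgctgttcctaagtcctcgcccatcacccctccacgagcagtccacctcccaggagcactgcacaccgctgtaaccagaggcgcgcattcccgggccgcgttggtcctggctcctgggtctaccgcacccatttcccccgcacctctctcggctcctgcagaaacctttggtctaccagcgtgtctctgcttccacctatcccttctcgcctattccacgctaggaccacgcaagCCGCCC
Rabl2, chr15:89591924-89592173: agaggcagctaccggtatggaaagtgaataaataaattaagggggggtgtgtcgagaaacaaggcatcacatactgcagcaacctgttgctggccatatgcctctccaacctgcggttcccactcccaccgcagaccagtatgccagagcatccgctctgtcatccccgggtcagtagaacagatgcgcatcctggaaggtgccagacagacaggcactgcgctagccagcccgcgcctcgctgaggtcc

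The stretch between Lmf2 and Ncaph2 held 6 CG pairs in its 59 bases and was 67.8% G or C. The sequence before Mapk8ip2 held 17 CG pairs at 63.2% G or C, and that before Rabl2 held 11 at 57.2%, where the median of 32851 RefSeq entries was 6 CG pairs and 52.4%. The GC box was found 1 time between Lmf2 and Ncaph2 and 1 time before Mapk8ip2, ending there at the last base before the start, and not before Rabl2. It was present in 32.7% of all entries over 250 bases and in 18.4% over the window placed as the 59 bases are before Ncaph2. The other motifs, searched on both strands, were in none of the 3 sequences. Over 250 bases, the box CCAAT was in 33.8% of all entries and the TATA box TATAAA in 12.4%. The ETS site CCGGAAG was in 6.91%, the cAMP response element TGACGTCA in 1.55% and the E-box CACGTG in 6.02%.

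The values are normalized counts per gene, which sum the transcripts of a gene. Shank3 itself was checked first against the labels. In the striatum it stood at 12189, 12644, 12706, 12740 and 11309 normalized counts in the WT samples, at 9243, 9323, 8355, 8746 and 7959 in the Shank3-HT samples and at 6061, 5883, 6242, 5922 and 4569 in the Shank3-HM samples. The 3 genotypes did not overlap in this region. Shank3 in Shank3-HM mice was 50.7% of WT in the cortex (adjusted p = 4.8e-07, limma), 47.9% in the hippocampus (adjusted p = 1.2e-10) and 46.3% in the striatum (adjusted p = 3.7e-07). Shank3-HT mice held 76.8%, 74.1% and 70.8% of WT in the same order, with adjusted p = 0.288, 0.000219 and 0.0494 by limma. These values cover the whole gene, and exons 14 to 16 were not measured apart.

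Marker lists followed the labelled regions in summed normalized counts. The 8 striatal markers summed to 144017 to 195992 in striatal samples, the 8 cortical markers to 19826 to 30423 in cortical samples and the 8 hippocampal markers to 24134 to 35494 in hippocampal samples, each above the other regions. Cortical Shank3-HM replicate 2 stood apart, with a striatal marker sum of 39841 where the other 14 cortical samples held 3891 to 5091. The choroid plexus markers (7 of 7 found) ranged from 1316 to 123799 among hippocampal samples. In bulk tissue, fewer cells of a type and less RNA per cell cannot be told apart.

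All 10 members passed the filter on low values in all 3 regions. Levels of different genes were compared per length, as normalized counts per kb of exon sequence in WT mice. In the cortex, Mapk8ip2 was the most abundant member at 1364 ± 25.9 per kb (SD, n = 5), above Shank3 at 871 ± 78.9. Sbf1, which overlapped Shank3 in the range of its samples, followed at 729 ± 34.9, Ncaph2 at 587 ± 33.1 and Ppp6r2 at 329 ± 42.7. Rabl2, Plxnb2, Chkb and Arsa came next, between 256 and 204 per kb, and each overlapped its neighbour in that order in the range of its samples. Lmf2 at 115 ± 12.3 and Trabd at 94.3 ± 8.28 were the least abundant and also overlapped. Mapk8ip2, Sbf1, Ncaph2 and Ppp6r2 were the first 4 members in every region, although Ppp6r2 and Plxnb2 overlapped in the hippocampus. In the striatum, Shank3 at 1340 ± 65.9 per kb stood above Mapk8ip2 at 1029 ± 9.35.

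**Figure D1:**
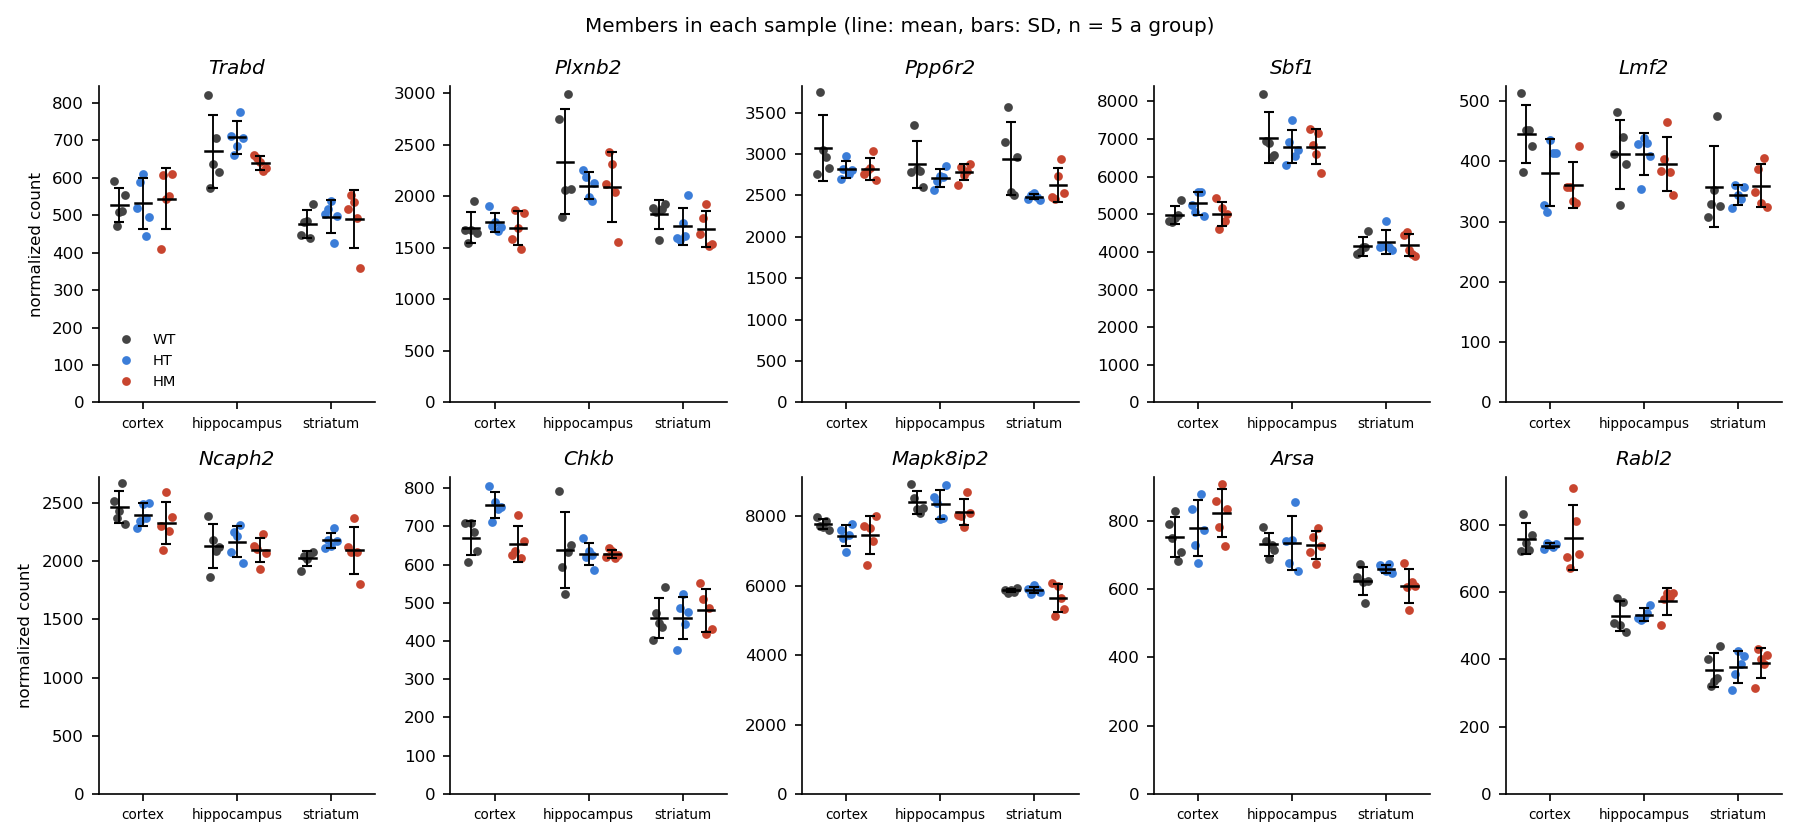
Normalized counts of the 10 members (one panel each, ordered along the chromosome) in the 45 samples, by region and genotype. Points are samples, horizontal lines are group means and bars are SD (n = 5). The genotypes of a region overlap for nearly every member, whereas Rabl2 steps down from cortex to hippocampus to striatum in each genotype.

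No member passed the test between genotypes. In limma with Benjamini-Hochberg adjustment over all genes tested, 0 of 10 members were called in Shank3-HM against WT mice in the cortex (0.0121% of all genes were), the hippocampus (0.00603%) or the striatum (0.182%). The same count of 0 was found for Shank3-HT against WT mice in the cortex (0% of all genes), the hippocampus (0.00603%) and the striatum (0.00607%). For Shank3-HM against Shank3-HT mice the count was also 0, beside 0.00606%, 0.00603% and 0.14% of all genes. At an unadjusted p under 0.05, 2 members passed in cortical Shank3-HT against WT mice (2.68% of all genes), 0 in hippocampal (5.26%) and 1 in striatal mice (7.43%). For Shank3-HM against WT mice these counts were 1 (5.49%), 0 (4.73%) and 0 (7.43%). For Shank3-HM against Shank3-HT mice they were 1 (4.87%), 0 (2.09%) and 0 (6.49%). Without cortical Shank3-HM replicate 2, the sample with the striatal markers, the count of called members stayed at 0 in the cortex.

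The 5 samples of 2 genotypes rarely lay fully apart. For Shank3-HT against WT mice this was so for 1 member in cortical samples (0.63% of all genes), 0 in hippocampal (0.797%) and 1 in striatal samples (0.971%). For Shank3-HM against WT mice it held for 0 members, beside 0.8%, 0.736% and 1.86% of all genes, and for Shank3-HM against Shank3-HT mice also for 0, beside 0.727%, 0.447% and 1.27%. The mutant effect was then compared between regions. The Shank3-HM effect differed for 0 members between cortex and striatum (0.0539% of all genes), cortex and hippocampus (0%) or hippocampus and striatum (0.0718%), and the Shank3-HT effect for 0 members, with 0% of all genes in each pair. At an unadjusted p under 0.05 the Shank3-HM counts were 1 (5.42%), 0 (4.45%) and 0 (5.37%) and the Shank3-HT counts 0 (3.46%), 0 (3.35%) and 0 (5.6%).

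The sizes were small as well. The 30 log2 fold changes of Shank3-HM against WT mice, 10 members in 3 regions, ran from -0.30 to 0.13, and their 95% intervals from -0.52 (Lmf2, cortex) to 0.31 (Rabl2, striatum). Those of Shank3-HT against WT mice ran from -0.23 to 0.18, with intervals from -0.45 (Lmf2, cortex) to 0.31 (Chkb, cortex). Shank3 itself was at -0.98, -1.06 and -1.11 in Shank3-HM mice on the same scale, below the lower bound of every member. In Shank3-HT mice Shank3 was at -0.38, -0.43 and -0.50. The cortical value, which was not called, lay within the cortical Lmf2 intervals of both mutant genotypes. A change of that size in cortical Lmf2 is therefore not excluded. The median absolute log2 fold change of the members in Shank3-HM mice was 0.051 for cortex, 0.049 for hippocampus and 0.051 for striatum, beside 0.077, 0.075 and 0.078 over all genes tested. All genes tested include those averaging as little as 10 normalized counts, whereas each member averaged at least 354 in each region. The medians were not matched for level, so they do not show that the members vary less than other genes.

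**Figure D2:**
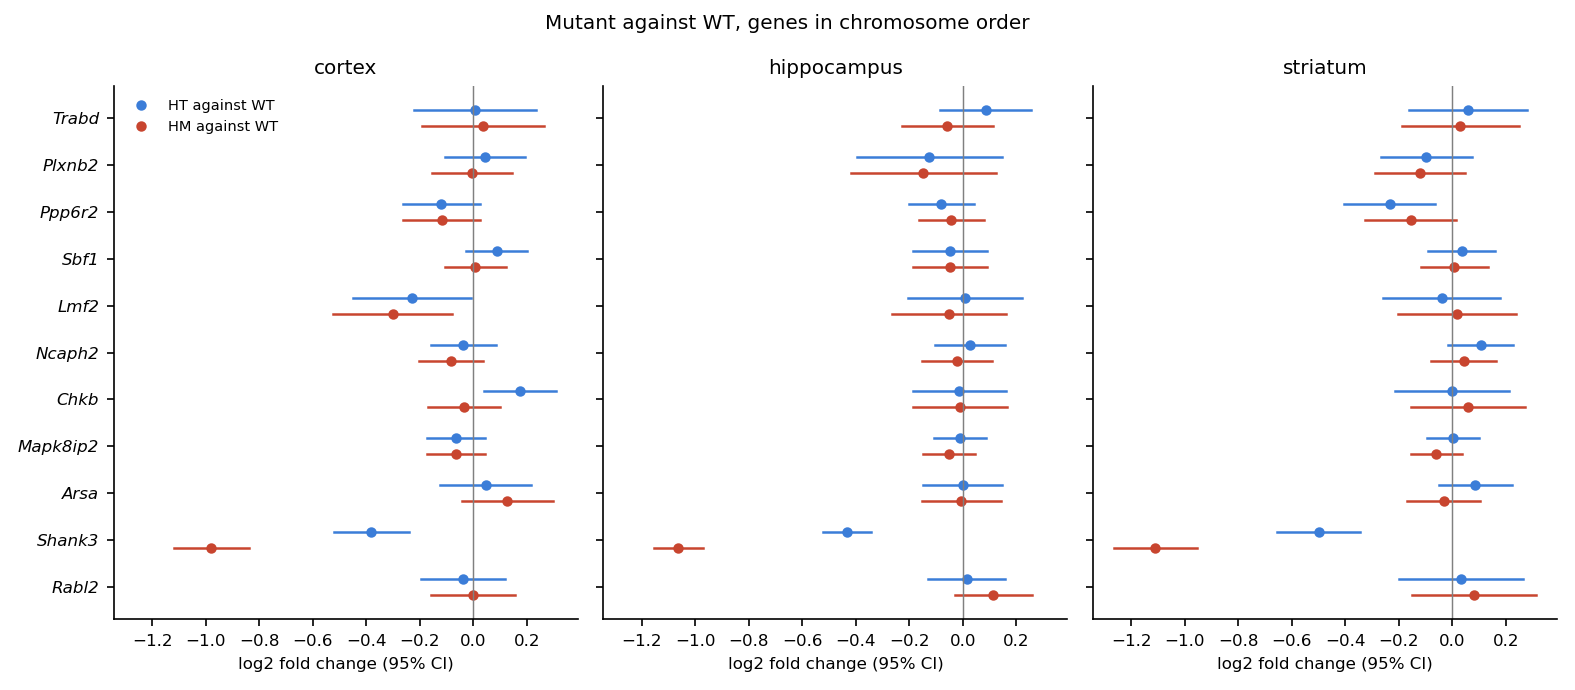
Log2 fold change of Shank3-HT (blue) and Shank3-HM (red) against WT mice for Shank3 and the 10 members in chromosome order, in the 3 regions. Points are limma estimates and bars 95% intervals. The points of Shank3 lie to the left of those of all members in each panel, at -0.98 to -1.11 in Shank3-HM mice. The cortical bars of Lmf2 reach past the Shank3 point of Shank3-HT mice.

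Among the members nearest to Shank3, Arsa encodes arylsulfatase A, the lysosomal enzyme that starts the breakdown of the myelin lipid sulfatide. Cortical Arsa stood at 790, 748, 829, 684 and 710 normalized counts in WT mice and at 859, 781, 908, 726 and 835 in Shank3-HM mice. The groups overlapped, with a log2 fold change of 0.13 (95% interval -0.043 to 0.30, adjusted p = 0.882, limma). The difference was -0.0046 in hippocampal and -0.032 in striatal samples. Arsa overlaps the antisense gene C230037L18Rik, which averaged 90.0 normalized counts. Rabl2, a small GTPase that acts at the base of cilia and on intraflagellar transport, lies at nearly the same distance on the other side. Its log2 fold change in Shank3-HM mice was -0.00086 in cortical, 0.11 in hippocampal (95% interval -0.030 to 0.26) and 0.081 in striatal samples (95% interval -0.15 to 0.31, and 0.035 to 0.16 when each sample was left out in turn). Neither neighbour, then, passed the test at the shortest distances, and 5 of the 6 intervals of Arsa and Rabl2 in Shank3-HM mice reached no further than 0.30 in either direction.

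Mapk8ip2 encodes a scaffold that holds kinases of the JNK cascade and is enriched at postsynaptic densities. Its striatal values were tight in WT mice, at 5875, 5803, 5876, 5828 and 5942 normalized counts. In Shank3-HM mice they were 6091, 5135, 5994, 5649 and 5344. The Shank3-HM samples lay on both sides of the WT samples and spread further. The log2 fold change was -0.059 in the striatum (95% interval -0.16 to 0.038; -0.026 without Shank3-HM replicate 2) and -0.058 averaged over the 3 regions (SE 0.026, unadjusted p = 0.0307, adjusted p = 0.478, limma), where 0 members were called (0.162% of all genes) and 2 had an unadjusted p under 0.05 (9.06%). The lowest cortical value, 6588, was that of Shank3-HM replicate 2, the sample with the high striatal marker sum, whose part in this value was not tested. The lowest striatal value, 5135, was also that of a replicate 2. Without the cortical sample the average was -0.043 (unadjusted p = 0.0772).

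Chkb encodes choline kinase beta, which phosphorylates choline in the first step of the Kennedy pathway to phosphatidylcholine. Cortical Chkb stood at 708, 607, 710, 686 and 636 normalized counts in WT mice. In Shank3-HT mice it was 806, 712, 763, 746 and 750, and in Shank3-HM mice 624, 636, 730, 617 and 661. Every Shank3-HT sample lay above every WT sample, as for 0.63% of all genes, whereas the Shank3-HM samples overlapped the WT samples. The log2 fold change was 0.18 for Shank3-HT against WT mice (95% interval 0.041 to 0.31, unadjusted p = 0.0137, adjusted p = 0.9997, limma) and -0.21 for Shank3-HM against Shank3-HT mice (95% interval -0.35 to -0.075, unadjusted p = 0.00434, adjusted p = 0.959). In the hippocampus and striatum, Chkb in Shank3-HT mice differed from WT by -0.012 and 0.00013. Chkb overlaps Gm44502 on its own strand and C730034F03Rik on the other, which averaged 15.2 and 30.4 normalized counts, so the split of reads among them is uncertain.

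Lmf2, a relative of the lipase maturation factor Lmf1, and Ncaph2, a subunit of the condensin II complex that compacts chromosomes, share the divergent start region shown above. Cortical Lmf2 stood at 514, 382, 452, 452 and 426 normalized counts in WT mice. It was 327, 317, 436, 413 and 414 in Shank3-HT mice and 357, 357, 334, 331 and 425 in Shank3-HM mice. Of the 10 mutant samples 6 lay below every WT sample, and the others within the WT range. The log2 fold change was -0.23 in Shank3-HT mice (unadjusted p = 0.0443, adjusted p = 0.9997, limma) and -0.30 in Shank3-HM mice (95% interval -0.52 to -0.080, unadjusted p = 0.0106, adjusted p = 0.878). In Shank3-HM mice Lmf2 differed by -0.052 in the hippocampus and by 0.017 in the striatum. The Shank3-HM effect in the cortex minus that in the striatum was -0.32 (unadjusted p = 0.0405, adjusted p = 0.890, limma).

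The cortical log2 fold change of Ncaph2 in Shank3-HM mice was -0.084 (95% interval -0.20 to 0.037). Striatal Ncaph2 stood at 1913, 2050, 2022, 2063 and 2077 normalized counts in WT mice and at 2116, 2185, 2132, 2287 and 2176 in Shank3-HT mice. All Shank3-HT samples lay above all WT samples, as for 0.971% of all genes, while the Shank3-HM samples, from 1804 to 2372, spanned both. The difference of Shank3-HT from WT was 0.11 on the log2 scale (95% interval -0.017 to 0.23, adjusted p = 0.732, limma). Ncaph2 overlaps Sco2 and Tymp on the other strand, which averaged 223 and 21.6 normalized counts.

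Ppp6r2 encodes a regulatory subunit of protein phosphatase 6. Its WT values were 2757, 3756, 3049, 2967 and 2834 normalized counts in the cortex, 2786, 3357, 2825, 2797 and 2608 in the hippocampus and 3148, 3569, 2542, 2507 and 2964 in the striatum. WT replicate 2 was the highest WT sample in all 3 regions and lay above all mutant samples there. Striatal Shank3-HT values were 2460, 2506, 2528, 2479 and 2449, with 4 of them below the lowest WT value, 2507, and replicate 3 inside the WT range. The log2 fold change was -0.23 there (95% interval -0.40 to -0.063, unadjusted p = 0.0100, adjusted p = 0.632, limma) and -0.16 without WT replicate 2. Averaged over the regions, Ppp6r2 was at -0.14 in Shank3-HT mice (unadjusted p = 0.00125, adjusted p = 0.374), where 0 members were called (0.00599% of all genes) and 1 had an unadjusted p under 0.05 (7.38%), and at -0.10 in Shank3-HM mice (unadjusted p = 0.0156, adjusted p = 0.401). These averages, and that of Mapk8ip2, count samples of different regions as separate, although some may come from one mouse. Ppp6r2 was below WT in all 6 comparisons of a mutant with WT, none of which passed, and those within a region share their WT samples. Without WT replicate 2, the hippocampal log2 fold change in Shank3-HM mice turned from -0.042 to 0.015, and the cortical one moved from -0.12 to -0.042. The coefficient of variation of Ppp6r2 was 13.0%, 9.84% and 15.04% in WT mice of the 3 regions, 3.69%, 3.94% and 1.31% in Shank3-HT mice and 4.70%, 3.62% and 7.73% in Shank3-HM mice. The WT coefficients include the high replicate 2 and were not computed without it, so they show no difference in spread between genotypes beyond that replicate.

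Sbf1, a myotubularin relative without phosphatase activity that binds the active enzyme Mtmr2, gave a log2 fold change of 0.0076, -0.048 and 0.0084 in Shank3-HM mice of the cortex, hippocampus and striatum. Its widest 95% interval there ran from -0.19 to 0.090, in the hippocampus. Plxnb2, a receptor of class 4 semaphorins in cell guidance, was at -0.0031, -0.15 and -0.12 in the same order. Its hippocampal interval, -0.42 to 0.12, was the widest of the members there. The hippocampal value was -0.051 without WT replicate 4 and ranged from -0.24 to -0.045 when each sample was left out in turn. Trabd, which encodes a TraB-domain protein, was at 0.037, -0.057 and 0.030. For these 3 genes no sample group of mutants lay apart from WT in any region.

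**Figure D3:**
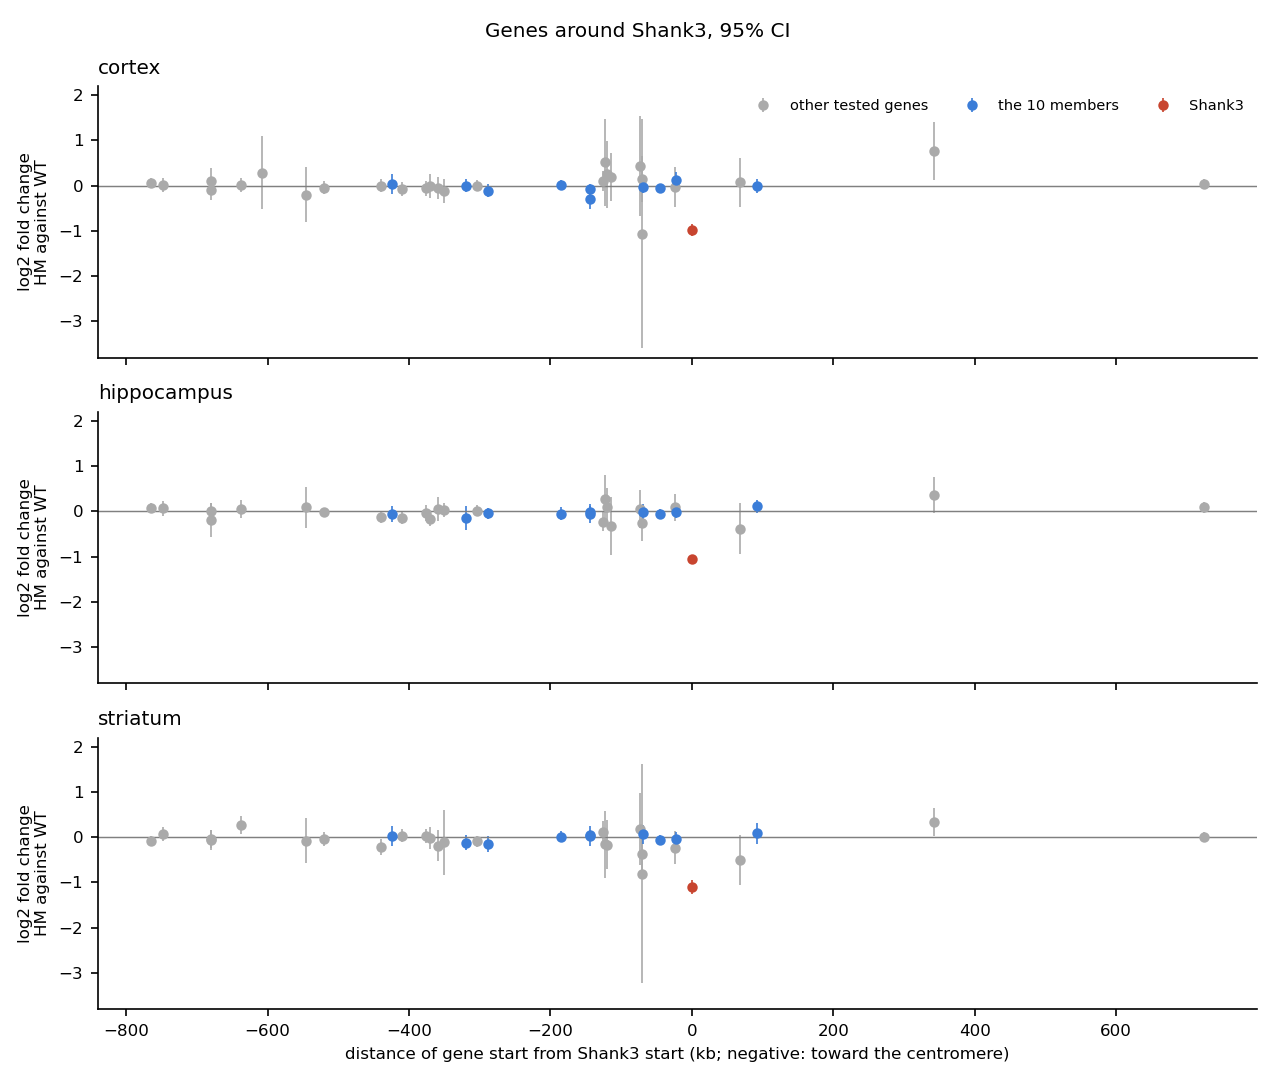
Log2 fold change of Shank3-HM against WT mice plotted against the distance of each gene's start from the Shank3 start, in kb, for the tested genes within 1 Mb, with 95% intervals. Members are blue, Shank3 red and other genes grey. Shank3 is the only called gene, at -0.98 to -1.11, and the wide bars belong to genes of low level.

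Of 25 other genes listed for the conserved block, 20 were tested in cortical and hippocampal samples and 19 in striatal ones, and 0 were called between genotypes in any region. At an unadjusted p under 0.05 in Shank3-HM against WT mice, 0 passed for cortex, 3 for hippocampus and 2 for striatum, beside 5.49%, 4.73% and 7.43% of all genes. The 7 genes beyond the point where conservation with the human segment ends were also not called, with 2, 0 and 2 at an unadjusted p under 0.05, beside the same shares of all genes. The genes within 1 Mb that are no members, 27 in the cortex and 25 in each of the other regions, gave 0 calls by limma. At an unadjusted p under 0.05 they gave 1, 3 and 3, beside 5.49%, 4.73% and 7.43% of all genes. The listed block genes and those within 1 Mb were above these shares in hippocampus and striatum, but not in cortex. The genes beyond that point were above them in cortex and striatum, but not in hippocampus. These sets are small, and no cause was tested.

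Comparing WT mice, 7 of 10 members were higher in the cortex than in the striatum and 0 were lower, where limma called 59.3% of all genes, 29.3% as higher and 30% as lower. The hippocampus against the striatum gave the same counts, 7 higher and 0 lower, beside 56.1% of all genes called, 28.3% higher and 27.8% lower. Between cortex and hippocampus, 2 members were higher in the cortex and 4 lower, beside 46.6% of all genes, 23.3% each way. The 5 WT samples lay fully apart for 6 members between cortex and striatum (46.3% of all genes), for 3 between cortex and hippocampus (32%) and for 5 between hippocampus and striatum (38.5%). Over all genotypes, with 15 samples a region, this held for 3 (25.1%), 2 (16.2%) and 4 members (24.7%). The median log2 difference of the members was 0.28 for cortex against striatum and 0.40 for hippocampus against striatum, and -0.011 and 0.0019 over all genes. Neuron markers summed to 190860 to 204937 normalized counts in WT cortex, 128330 to 149380 in hippocampus and 107447 to 114702 in striatum, and oligodendrocyte markers to 69530 to 90800, 149811 to 162689 and 193359 to 257445. The part of these cell types in the members' differences was not tested.

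**Figure D4:**
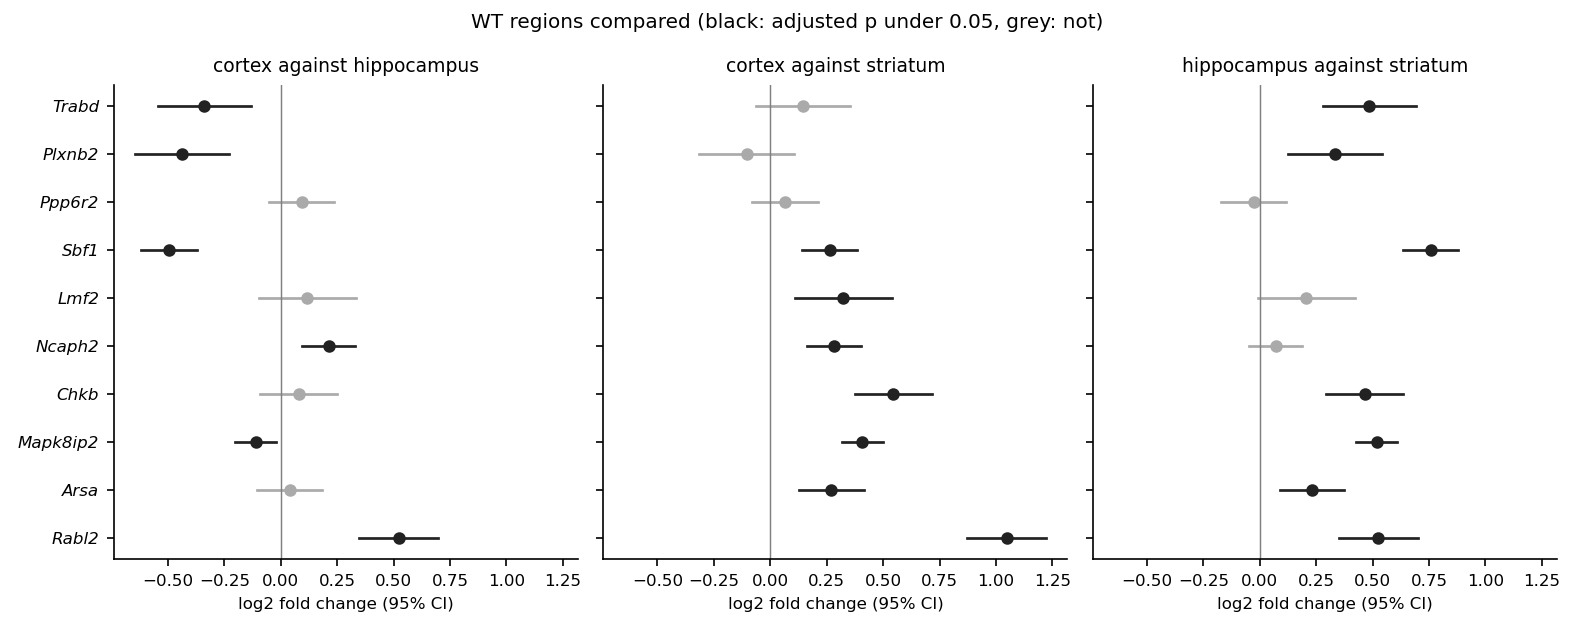
Log2 difference of the 10 members between regions in WT mice, with 95% intervals, in chromosome order. Black marks an adjusted p under 0.05 and grey the rest. Rabl2 shows the largest difference between cortex and striatum, 1.05, and all called members lie to the right in both comparisons with the striatum.

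Rabl2 varied most. It stood at 723, 832, 745, 725 and 770 normalized counts in WT cortex, at 508, 581, 503, 571 and 481 in hippocampus and at 402, 322, 335, 344 and 439 in striatum. The regions did not overlap, and this held for the 15 samples of all genotypes in each pair of regions. The log2 difference was 1.05 ± 0.087 (SE) between cortex and striatum (adjusted p = 5.7e-14, limma), 0.52 between cortex and hippocampus (adjusted p = 2.5e-06) and 0.53 between hippocampus and striatum (adjusted p = 1.5e-06). Over the 45 samples the genes with the pattern closest to Rabl2 among 16707 others were Slc6a17 and Mast2, whose centred log2 values differed from it by a root mean square of 0.119 and 0.121, where the SD of Rabl2 itself was 0.432.

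Sbf1 was highest in the hippocampus. WT hippocampus held 8192, 6951, 6901, 6524 and 6584 normalized counts, WT cortex 4816, 4785, 4912, 4979 and 5378, and WT striatum 3941, 3989, 4132, 4117 and 4561. The hippocampal samples lay above all others, also across the 15 samples of each region. The log2 difference was 0.76 ± 0.061 (SE) between hippocampus and striatum (adjusted p = 2.0e-14, limma), -0.50 between cortex and hippocampus (adjusted p = 4.5e-09) and 0.26 between cortex and striatum (adjusted p = 0.000254). Gpc1 and Pgbd5 had the closest pattern, at a root mean square difference of 0.102 and 0.104.

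Mapk8ip2 was lower in the striatum than elsewhere in every genotype. WT samples ran from 8101 to 8931 normalized counts in the hippocampus, from 7621 to 7991 in the cortex and from 5803 to 5942 in the striatum, without overlap. The log2 difference was 0.52 between hippocampus and striatum (adjusted p = 2.3e-13, limma) and 0.41 between cortex and striatum (adjusted p = 1.8e-10). That between cortex and hippocampus was small, -0.11 (adjusted p = 0.0400), and did not pass after centring each sample on its median gene (-0.085, adjusted p = 0.120) or without any one of 6 of the 10 samples (adjusted p = 0.0509 to 0.120). Its closest genes were Arhgef4 and Stard7, at 0.0731 and 0.0788.

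Chkb was likewise low in the striatum, at 402, 473, 447, 438 and 540 normalized counts in WT mice against 607 to 710 in cortex and 522 to 791 in hippocampus. The log2 difference was 0.54 for cortex against striatum (adjusted p = 4.6e-07, limma) and 0.47 for hippocampus against striatum (adjusted p = 9.1e-06). Pcbp4 and Pgp had the closest pattern, at 0.117 each. Arsa differed less, by 0.27 for cortex against striatum (adjusted p = 0.00110) and by 0.23 for hippocampus against striatum (adjusted p = 0.00528). Arsa, which acts on a myelin lipid, was lowest in the striatum, the region with the highest oligodendrocyte marker sum. Between cortex and hippocampus, whose oligodendrocyte sums also lay apart, Arsa differed by 0.040 (adjusted p = 0.678, limma). The part of these cells in the level of Arsa was not tested.

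The divergent pair Lmf2 and Ncaph2 was higher in cortex than in striatum for both genes, by 0.32 (adjusted p = 0.00819, limma) and 0.28 (adjusted p = 6.6e-05). Between hippocampus and striatum neither was called, with Lmf2 at 0.21 (95% interval -0.0079 to 0.42) and Ncaph2 at 0.070 (95% interval -0.049 to 0.19). Ncaph2 was also higher in cortex than in hippocampus, by 0.21 (adjusted p = 0.00274). Lmf2 in that comparison was at 0.12 (95% interval -0.097 to 0.33).

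Trabd and Plxnb2 were highest in the hippocampus. Trabd was 0.48 higher there than in striatum (adjusted p = 8.8e-05, limma) and 0.34 higher than in cortex (adjusted p = 0.00557), and its 15 hippocampal samples, from 573 to 822 normalized counts, lay above all 15 striatal ones. Plxnb2 was 0.33 higher in hippocampus than in striatum (adjusted p = 0.00603) and cortex was 0.44 below hippocampus (adjusted p = 0.000520). Its WT hippocampal values were 2745, 1796, 2061, 2994 and 2071 normalized counts, against 1548 to 1956 in cortex and 1576 to 1923 in striatum, so that 1 hippocampal sample lay within both other ranges. Ppp6r2 was the member with the least regional difference, all 3 of its log2 differences lying between -0.028 and 0.092 with none called.

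Choroid plexus tissue lies against the hippocampus, and its markers were high in some samples with high Plxnb2 but not in others. The WT hippocampal sample with the highest Plxnb2, 2994, was replicate 4, which also held the highest choroid plexus marker sum, 123799. The next, replicate 1 at 2745, held a sum of 6870. Shank3-HT hippocampus replicate 1 had the highest Plxnb2 of its group, 2253, at a sum of 1853. Replicates 2 and 5 of that group held sums of 33904 and 31920 with Plxnb2 at 2190 and 2131. Shank3-HM hippocampus replicate 5 was the lowest of its group in both, with Plxnb2 at 1555 and a sum of 6197. Replicate 5 of the Shank3-HT striatum held 68811, where the other 14 striatal samples held 464 to 1573, and had the highest striatal Plxnb2, 2011. The part of these markers in the Plxnb2 values was not tested. Without WT replicate 4, Plxnb2 was 0.34 higher in hippocampus than in cortex (adjusted p = 0.00550, limma) and 0.24 higher than in striatum (adjusted p = 0.0470).

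**Figure D5:**
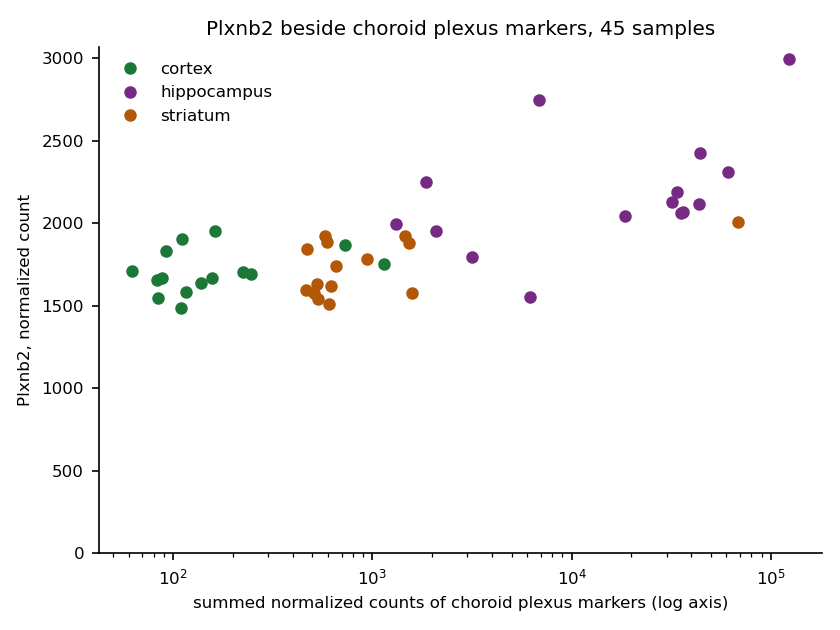
Plxnb2 (normalized count) against the summed normalized counts of 7 choroid plexus markers (log axis) in the 45 samples, coloured by region. The hippocampal samples spread from 1316 to 123799 along the x axis, and the 2 highest Plxnb2 values, 2994 and 2745, lie at 123799 and 6870.

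The genes that work with the members were read from lists of their pathways. In Shank3-HM against WT mice, 0 of 9 JNK scaffold and kinase genes, 0 of 10 sulfatase and sphingolipid genes, 0 of 8 Kennedy pathway genes, 0 of 9 myotubularins, 0 of 2 lipase maturation genes, 0 of 6 protein phosphatase 6 subunits and 0 of 8 genes around Rabl2 and cilia were called by limma in any region, as were 0 of 6 or 7 condensin genes. At an unadjusted p under 0.05, 1 of these genes passed in cortical mice, a lysosomal gene, and 0 elsewhere, beside 5.49%, 4.73% and 7.43% of all genes for cortex, hippocampus and striatum. Of 18 plexin, semaphorin and effector genes, 1 was called, as higher in the striatum (0.182% of all genes), and 0, 0 and 2 had an unadjusted p under 0.05 in the 3 regions. It was Sema4a, a class 4 semaphorin, at a log2 fold change of 0.87 ± 0.14 (SE, adjusted p = 0.0142), named after its values were seen.

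For cortex against striatum in WT mice, where 29.3% of all genes were called higher and 30% lower, 5 of 9 JNK genes were higher and 3 lower, led by Mapk10 (0.87) and Mapk8 (0.77), both JNK kinases. Of the 18 genes of the plexin group 10 were higher and 4 lower, with Rnd1, a small GTPase that binds plexins, at 2.92. Both tested lipase genes were lower in the cortex, Lpl (lipoprotein lipase) at -2.68 and Lmf1 at -0.62, where Lmf2 was 0.32 higher. Sbf2, the closest relative of Sbf1, was at -0.70 where Sbf1 was 0.26 higher. Of the 7 condensin genes 1 was higher and 3 lower, among them Ncapg at -2.01. Etnk2, an ethanolamine kinase, was at 3.51, while Chkb was at 0.54. In the hippocampus against the striatum, Galns, a lysosomal sulfatase, was at 1.65 and Arsa at 0.23.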

How the data were processed

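Per the labels and the study's methods, stranded mRNA libraries were quantified by the authors with Salmon 1.1.0 (GC bias correction, build GRCm38), imported with tximport and normalized with DESeq2. The submitters' processing notes give DESeq2 1.26.0 and R 3.6.2, whereas the study's methods name later versions of both. The deposited signal values are normalized counts with decimals that gave back no whole reads, so no count test was run. Their totals of 26118607 to 29568983 per sample are no depth, which is unknown. Columns headed KI were taken as the knock-out (Shank3-HM) samples. The strand setting of the quantification is not given in the sources used here.

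Values were taken as log2(value + 1), so fold changes of low genes are understated. Each region's 15 samples were fitted, for genes averaging 10 or more there, in limma 3.58.1 (R 4.3.3, intensity trend, Benjamini-Hochberg adjustment over 16507, 16571 or 16482 genes, threshold 0.05). Comparisons of regions, averages over regions and differences between regions used 1 fit of the 9 groups (16708 genes). The fits were tested on simulated data. Gene positions are from GENCODE M21, which held 18120 of 18135 identifiers. The members and gene lists were chosen with earlier results of these data known. Named besides the members were called partner genes with the largest regional differences, at most 2 a list, and the 2 genes closest in pattern to members whose WT regions spanned at least 0.5. Nothing states that samples of a group came from separate litters. The p-values set a difference between groups against the spread between these samples, which is pooled over the groups of a fit and moderated over genes. Alternatives were other pseudocounts, filters, scalings, variance models, samples and a replicate block. Python 3.11.15, pandas 2.3.3 and matplotlib 3.10.9 were used.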

Additional observations from a re-analysis of the deposited data

Results flagged for a closer look

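In 7 of the 90 groups of 5 samples, 1 value of a member lay far from the other 4, by a gap to the nearest above 0.71 of the group's range. Chance gives about 1 in 20 groups. Sbf1 was high in WT hippocampus replicate 1 at 8192 normalized counts and in Shank3-HT striatum replicate 3 at 4812. Lmf2 was high in Shank3-HM cortex replicate 5 at 425 and in WT striatum replicate 4 at 476. Ppp6r2 was high in WT hippocampus replicate 2 at 3357. Plxnb2 was low in WT striatum replicate 3 at 1576, and Rabl2 was low in Shank3-HM hippocampus replicate 1 at 502.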

How the results depend on the processing

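The counts of called members kept their value or moved by 1. The count was 0 in all 17 comparisons that involve genotype under every alternative run, and none of 6400 alternatives for single members there was called. Leaving out each replicate in turn gave 5 to 6 called members for WT cortex against hippocampus, 7 to 7 for cortex against striatum and 7 to 8 for hippocampus against striatum. With samples of one genotype and replicate number as a block, the counts were 6, 7 and 7 for these and 0 for the genotype comparisons. Under the block, the averages over regions had an adjusted p of 0.919 for Ppp6r2 in Shank3-HT mice, and of 0.728 for Ppp6r2 and 0.782 for Mapk8ip2 in Shank3-HM mice (limma). The numbers were not taken as pairs, since the labels tie them to no mouse. Across genotypes, 7 of 45 same-numbered pairs correlated above 0.1, beside 21 of 180 with different numbers. Across regions, 16 of 45 same-numbered pairs did so, beside 5 of 180 with different numbers. Of 90 best matches across regions, each among 5 candidates, 54 were of the own number, where numbers with no relation would give 18 on average. These values are a hint that samples of one number may share a mouse across regions, which the main fit of the 9 groups leaves out. Of 6970 alternatives for single members, 7 lost a call, all for Mapk8ip2 in cortex against hippocampus (median-centred -0.085, adjusted p = 0.120, limma, and leaving out WT cortex replicate 2, 3, 4 or 5 or hippocampus replicate 1 or 2, adjusted p = 0.0509 to 0.120). Lmf2 in hippocampus against striatum gained a call without hippocampus replicate 3 (adjusted p = 0.0238) or striatum replicate 4 (adjusted p = 0.00925), and no call changed sign. Of the 60 differences of a member from WT within a region, none of them called, 51 moved by over 1.5 times and 29 changed sign when some single library was left out. Some of these differences were far smaller than their SE, such as 0.00013 (SE 0.10) for Chkb in striatal Shank3-HT mice. For such values a small move changes the ratio or the sign. How far this accounts for the counts was not tested. Leaving out samples for the differences between regions was chosen after seeing the data. Depth is unknown and limits all values.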
